A study of Mus musculus with 33 samples.

Results

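Annexins and the S100 proteins that pair with them were described in mouse liver and in liver tumours. The genes were chosen by name (Anxa1, Anxa2, Anxa3, Anxa4, Anxa5, Anxa6, Anxa7, Anxa11, S100a10 and S100a11), with a rise of Anxa5 in the 1KI tumours already known from these arrays. Each gene was read from the probe set that carries its symbol alone and has the highest mean over all columns of the deposited table. This rule gave a value to 8 of the 10 genes, out of 18193 genes measured the same way. Anxa11 and S100a11 each lie on 1 probe set annotated with several genes, and they have no value here. The probe sets were 1448213_at for Anxa1, 1419091_a_at for Anxa2, 1460330_at for Anxa3, 1421223_a_at for Anxa4, 1425567_a_at for Anxa5, 1415818_at for Anxa6, 1416138_at for Anxa7 and 1416762_at for S100a10.

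RNA samples of 21 livers or tumours from mice aged 12 months, on a mixed FVB/NT, 129S1/Svlmj and C57BL/6NT background, was hybridised to Affymetrix arrays. Normal liver came from wild-type mice (wt, n = 7) and from E2f3a knockout mice (3aKO, n = 5). Hepatocellular carcinoma that had arisen spontaneously came from E2f1 knock-in mice (1KI, n = 5) and from E2f3b knock-in mice (3bKI, n = 4). How the alleles were built, and in which cells they act, is not given in the sources used here. The authors normalized wt, 3aKO and 1KI together (normalization 1) and, separately, the same wt and 3aKO arrays with 3bKI (normalization 2), so tumours were compared only with the normal livers of their own normalization. Both tumour groups share those normal livers as controls, the difference between 1KI and 3bKI was not tested, and in both groups genotype and tumour status coincide. Each array is 1 RNA sample of whole tissue, in which fewer cells of a type and less RNA per cell cannot be told apart.

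Annexins are cytosolic proteins that bind acidic phospholipids, phosphatidylserine among them, when calcium rises, through a repeated core domain and a variable N-terminal tail. They take part in membrane traffic, membrane repair and the link between membrane and actin. S100a10 and S100a11 are small dimeric proteins of the EF-hand family that hold a pair of annexins together: S100a10 binds the tail of Anxa2, and S100a11 binds that of Anxa1 and also Anxa2. The Anxa2 and S100a10 complex at the cell surface binds plasminogen and its activator. In healthy liver, hepatocytes carry little Anxa2, while bile duct, stromal and blood vessel cells carry more.

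The promoter windows of Anxa2 and Anxa5 are shown because these were the annexins that lay above every wt array in all 9 tumours. They are RefSeq sequences of build GRCm38.p6 that run from 250 bases before to 50 bases after the annotated start, printed 5′ to 3′ on the strand of the gene. Anxa2 lies at chr9:69453433-69453732 on the + strand and Anxa5 at chr3:36475838-36476137 on the - strand. Capitals mark matches to the motifs described in the next paragraph.
Anxa2: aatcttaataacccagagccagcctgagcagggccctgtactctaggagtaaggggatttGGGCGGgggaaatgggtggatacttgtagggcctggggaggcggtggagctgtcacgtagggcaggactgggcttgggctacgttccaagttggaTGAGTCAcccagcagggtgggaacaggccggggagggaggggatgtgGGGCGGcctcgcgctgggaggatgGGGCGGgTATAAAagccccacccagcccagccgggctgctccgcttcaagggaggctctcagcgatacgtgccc
Anxa5: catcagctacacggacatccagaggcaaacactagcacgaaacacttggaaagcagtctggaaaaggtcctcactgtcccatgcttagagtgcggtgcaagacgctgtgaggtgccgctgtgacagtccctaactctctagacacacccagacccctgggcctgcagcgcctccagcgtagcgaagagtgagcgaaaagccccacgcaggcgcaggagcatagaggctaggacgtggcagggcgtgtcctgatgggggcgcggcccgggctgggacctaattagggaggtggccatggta

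Both strands were searched for the letters of an E2F site (TTTCCCGC, TTTCGCGC, TTTGCCGC or TTTGGCGC), an AP-1 site (TGANTCA), a GC box (GGGCGG) and a TATA box (TATAAA), none of which overlapped in these windows. The Anxa2 window held 1 AP-1 match that begins at position -95 from the start, 3 GC boxes at -190, -48 and -24, and 1 TATA box at -17. The Anxa5 window held none of the 4 motifs. Of 32851 promoter windows of the same length, 7.81% held the AP-1 letters, 35.7% a GC box, 13.6% a TATA box and 2.26% an E2F site. No window of the 7 listed genes found in the table (9 windows) held the E2F letters. These matches describe letters only, not binding.

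Arrays and RNA differed in ways that touch the results. In normalization 1, 1KI replicates 3 and 4 stood apart on the first principal component, which held 32.3% of the variance, at 61.0 and 69.8 against -17.0 to 5.08 for all other arrays. As a sign of RNA quality, the 3′ beta-actin control probe set was set against the 5′ one, a log2 ratio that rises as RNA degrades. It was 0.70 to 0.87 in 3bKI, 0.65 to 1.37 in wt and 1.06 to 1.35 in 3aKO in normalization 2. In normalization 1 it was 0.91 to 1.28 in 1KI, 0.63 to 1.38 in wt and 1.09 to 1.35 in 3aKO. Sex was read from Xist and Y-linked genes: wt held 3 females and 4 males, 3aKO 3 and 2, 1KI 2 and 3, and 3bKI 3 females and 1 array, replicate 2, of unclear sex. For changes of the chosen annexins and S100a10 against wt, the values without 1KI replicates 3 and 4 are given beside those of all arrays. So are, for 3bKI, the values with sex as a covariate and without replicate 2. Changes of their further probe sets, of other genes and of gene lists come from all arrays only, without these checks.

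Across the family, Anxa5 rose against wt in both kinds of tumour and Anxa2 in 3bKI, with all 9 tumours above every wt liver for both genes. The rise of Anxa5 in 1KI was called in 11 of 24 alternative settings. Against 3aKO livers, Anxa5 overlapped in both kinds of tumour and was not called. Anxa1 and Anxa3 lay higher in most but not all tumours, Anxa4 and Anxa7 lay higher in 1KI, and Anxa6 and S100a10 overlapped with normal liver throughout. Log2 changes come from limma with moderated standard errors (SE), and a gene was called at a Benjamini-Hochberg adjusted p under 0.05 over all 18193 genes. In 1KI against wt, 1 of the 8 members (Anxa5) was called higher and 0 lower, where 0.242% of all genes were called in either direction, 38 genes higher and 6 lower. The rise of Anxa5 there was known when the genes were chosen, so the counts of this comparison do not test the family. The groups did not overlap for 2 members, Anxa2 and Anxa5, and for 1.98% of all genes. All 8 members had a log2 change above 0, with a median of 0.53, while 43.3% of all genes lay above 0 and their median was -0.03. An unadjusted p under 0.05 was found for 6 members and 3465 genes. In 3bKI against wt, 2 members (Anxa2 and Anxa5) were called higher and 0 lower, with 2.07% of all genes called (199 higher, 178 lower). These 2 members did not overlap with wt, and nor did 4.28% of all genes. Again all 8 members lay above 0, where 53.1% of all genes did, with a median of 0.71 beside 0.01 for all genes. The 3bKI counts use the same wt livers and again include Anxa5, so they are not independent of those of 1KI. Here 5 members and 3778 genes had an unadjusted p under 0.05.

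Against 3aKO livers, 3bKI tumours had 1 member called higher, Anxa2, and 0 lower, where 9.18% of all genes were called (531 higher, 1140 lower). Anxa2 was also the 1 member without overlap, beside 15.0% of all genes. The median of the members was 0.60, and that of all genes 0.03. In 1KI against 3aKO, limma called 0 members and 0.00% of genes, with 4 members and 2550 genes at an unadjusted p under 0.05. Anxa2 alone among the members did not overlap there, as 3.41% of all genes did not, and the median was 0.51 against -0.02 for all genes. In 3aKO against wt, both normal, limma called 0 members and 0.00% of genes, with 2 members (Anxa5 and Anxa6) and 1357 genes at an unadjusted p under 0.05. None of the members was without overlap, beside 0.500% of all genes, and the median was 0.09 against 0.00 for all genes.

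**Figure D1:**
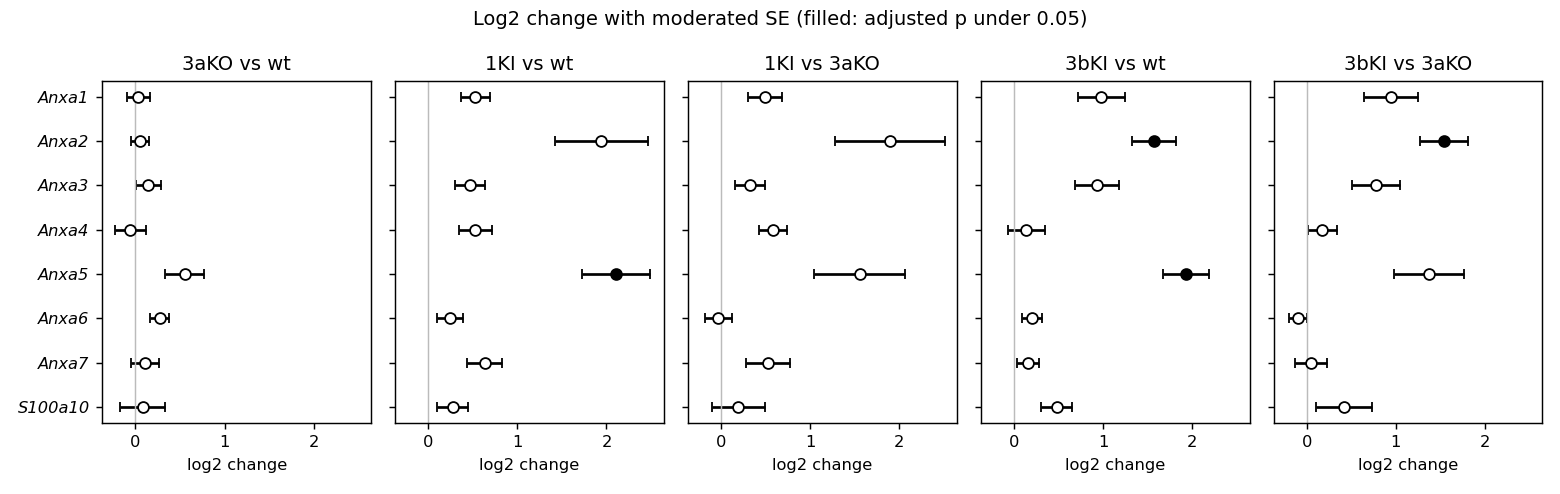
Log2 change of each gene (x axis, log2 units) in the 5 comparisons, with bars of 1 moderated SE; filled points have an adjusted p under 0.05. Anxa2 and Anxa5 lie farthest to the right in all 4 comparisons of tumour with normal liver, and Anxa5 is farthest in 3aKO against wt at 0.55.

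Anxa2 is the annexin that pairs with S100a10 and binds actin and the plasma membrane. Its log2 values in wt ran from 8.05 to 8.67 with a median of 8.19, and the 3aKO arrays 1 to 5 gave 8.37, 8.33, 8.22, 8.33 and 8.50. The 1KI tumours 1 to 5 gave 8.78, 9.48, 11.66, 12.21 and 9.09. Every 1KI tumour lay above every normal liver, but replicates 3 and 4 lay far above the rest. The mean of 1KI was 10.24 ± 1.58 (SD, n = 5), that of wt 8.30 ± 0.22 (SD, n = 7) and that of 3aKO 8.35 ± 0.10 (SD, n = 5). Against wt the log2 change of 1.94 ± 0.52 (SE), or 3.85-fold, missed the threshold of limma's test (adjusted p = 0.129), and against 3aKO it was 1.89 ± 0.62 (adjusted p = 0.247). Without 1KI replicates 3 and 4 the change against wt was 0.81 ± 0.16 (adjusted p = 0.0961) and against 3aKO 0.76 ± 0.14 (adjusted p = 0.108).

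In normalization 2 the range of Anxa2 in wt was 8.01 to 8.60 with a median of 8.16, and the 3aKO arrays gave 8.32, 8.24, 8.14, 8.27 and 8.42. The 3bKI tumours 1 to 4 gave 9.22, 10.86, 9.64 and 9.55. All 4 lay above every normal liver, replicate 2 the highest. Anxa2 rose in 3bKI by 1.57 ± 0.25 against wt (2.97-fold, adjusted p = 0.0172) and by 1.54 ± 0.27 against 3aKO (adjusted p = 0.0164) in limma's fit. With the beta-actin ratio as a covariate the change against wt was 1.63 ± 0.33 (adjusted p = 0.185) and that against 3aKO 0.73 ± 0.63 (adjusted p = 0.876), so both calls were lost. The ratio did not overlap between 3bKI and 3aKO, so the fit against 3aKO cannot tell ratio and group apart. Against wt the size of the change was kept while its SE grew. With sex as a covariate, which drops replicate 2, the changes were 1.07 ± 0.15 (adjusted p = 0.0209) and 1.18 ± 0.13 (adjusted p = 0.0158). In both normalizations 3aKO and wt were the neighbours in the order of levels that did not differ beyond their spread, with a change of 0.05 ± 0.11 in normalization 1 (adjusted p = 0.934).

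Anxa5 binds phosphatidylserine with high affinity and is used as a probe for dying cells. Its wt values ran from 8.21 to 8.70 with a median of 8.62. The 3aKO arrays 1 to 5 gave 8.70, 8.30, 9.82, 8.98 and 9.60, and the 1KI tumours 1 to 5 gave 10.01, 9.92, 11.36, 12.29 and 9.58. All 5 tumours lay above every wt liver, and 4 of the 3aKO livers did too, replicates 3 and 5 by the most. 3aKO replicates 3 and 5 reached the range of the lower tumours. The 1KI mean was 10.63 ± 1.15 (SD, n = 5), the 3aKO mean 9.08 ± 0.63 (SD, n = 5) and the wt mean 8.53 ± 0.20 (SD, n = 7). Anxa5 rose in 1KI against wt by 2.11 ± 0.39 (4.31-fold), at an adjusted p of 0.0483 in limma's fit. The adjusted p was over the threshold without 1KI replicate 3, at a change of 1.92 ± 0.40 (adjusted p = 0.118). The same held without any one of the 7 wt replicates, at changes of 2.05 to 2.14 (adjusted p = 0.0813 to 0.112). Anxa5 was still called without 1KI replicates 3 and 4 together, at 1.31 ± 0.13 (adjusted p = 0.00248). Against 3aKO the change was 1.55 ± 0.51 (adjusted p = 0.251), and 0.76 ± 0.32 without those 2 tumours (adjusted p = 0.520).

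In normalization 2 Anxa5 ran from 8.08 to 8.58 in wt with a median of 8.51. The 3aKO arrays gave 8.57, 8.19, 9.72, 8.87 and 9.49, and the 3bKI tumours 1 to 4 gave 9.60, 11.11, 10.88 and 9.78. All 4 tumours again lay above all wt livers, while replicate 1 fell below the highest 3aKO liver. Anxa5 rose in 3bKI against wt by 1.93 ± 0.26 (3.81-fold, limma adjusted p = 0.00774), and was 1.37 ± 0.39 above 3aKO without passing the test (adjusted p = 0.0546). The beta-actin covariate left the change against wt at 1.85 ± 0.34 (adjusted p = 0.143), and that fit called 0 genes of any kind. With sex as a covariate and without replicate 2 the rise against wt was 1.60 ± 0.27 (adjusted p = 0.0394). Against 3aKO the change was 0.83 ± 0.40 in the fit with sex (adjusted p = 0.295) and 2.26 ± 0.94 in that with the beta-actin ratio (adjusted p = 0.816), which cannot tell ratio and group apart. Between the normal livers, Anxa5 was 0.55 ± 0.22 higher in 3aKO (adjusted p = 0.655), the largest size of change among the 8 members in that comparison.

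**Figure D2:**
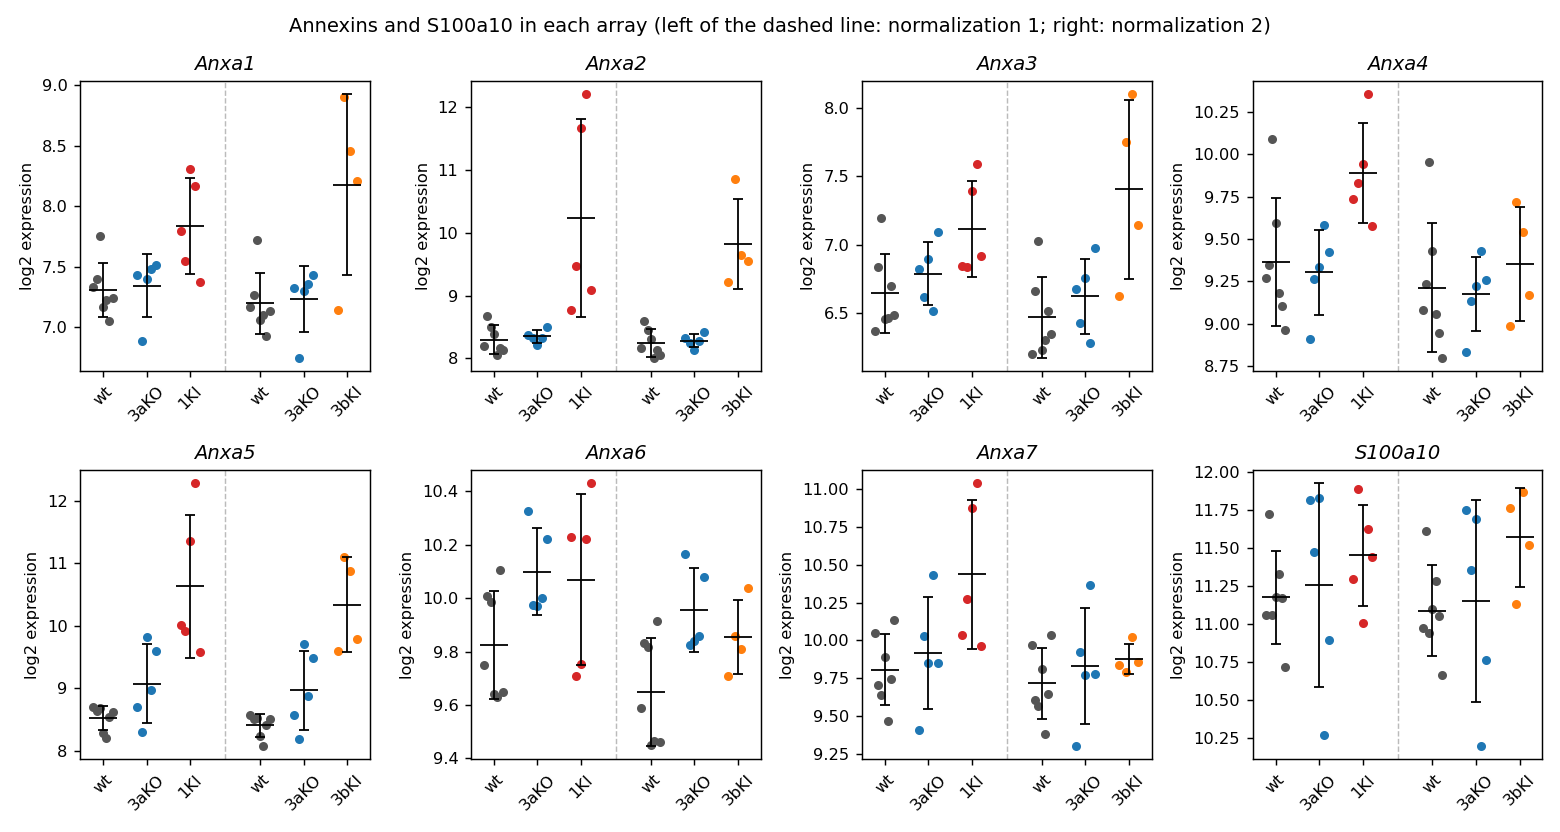
Log2 expression (y axis) of the 8 genes in every array by group, with points for arrays and bars for the mean ± SD; the dashed line separates the normalizations, and the y axis differs between genes. Anxa2 spans 8.78 to 12.21 in 1KI and 8.05 to 8.67 in wt, while S100a10 spans 11.01 to 11.88 in 1KI and 10.72 to 11.72 in wt.

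S100a10, also called p11, is the EF-hand partner of Anxa2 and does not bind calcium itself. In wt it ran from 10.72 to 11.72 with a median of 11.17, and the 1KI tumours 1 to 5 gave 11.30, 11.88, 11.01, 11.62 and 11.44. The 3aKO arrays 1 to 5 gave 11.82, 11.47, 11.83, 10.27 and 10.90, the widest spread of the 3 groups. Only 1 of 5 1KI tumours lay above all wt livers, and 1KI replicate 3, which was second highest for Anxa2, was the lowest of its group for S100a10. The change in 1KI was 0.27 ± 0.17 against wt (limma adjusted p = 0.381) and 0.19 ± 0.29 against 3aKO (adjusted p = 0.784). Without 1KI replicates 3 and 4 it was 0.36 ± 0.19 against wt (adjusted p = 0.575). The 3bKI tumours 1 to 4 gave 11.76, 11.13, 11.87 and 11.52, beside 10.66 to 11.61 in wt, and 2 of 4 lay above all wt livers. Against wt the 3bKI change was 0.48 ± 0.17 (adjusted p = 0.146), and 0.52 ± 0.20 with sex as a covariate and without replicate 2 (adjusted p = 0.322). Replicate 2, the 3bKI tumour with the most Anxa2, had the least S100a10.

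**Figure D3:**
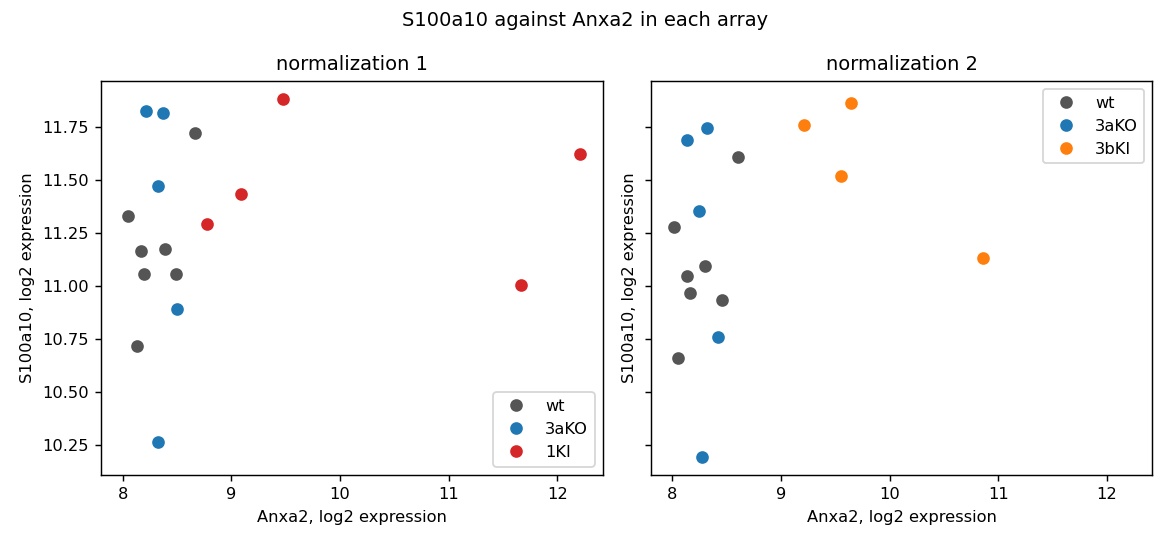
S100a10 (y axis, log2 expression) against Anxa2 (x axis, log2 expression) in each array, coloured by group, with 1 panel per normalization. Anxa2 separates the tumours from the normal livers along the x axis, while S100a10 overlaps between groups along the y axis.

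Whether the partners vary together was computed over the 12 normal livers of normalization 1, since 2 of the tumours stand apart. Pearson's r of Anxa2 and S100a10 was 0.159 (permutation p = 0.626) and Spearman's rho was 0.154 (permutation p = 0.634). Within the 7 wt livers r was 0.562 (exact permutation p = 0.211). Taking each liver as its deviation from its genotype mean gave r = 0.148 (permutation p = 0.656), and leaving out the 2 livers farthest from the median of Anxa2 gave r = -0.00977 (permutation p = 0.972). The 2 relations planned with S100a11 had no values, so this is a family of 1 and needs no adjustment.

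Anxa1 is the annexin that responds to glucocorticoids and signals through formyl peptide receptors. It ran from 7.05 to 7.75 in wt with a median of 7.24, and the 1KI tumours 1 to 5 gave 7.80, 7.55, 8.31, 8.17 and 7.37. In 1KI, 3 of 5 tumours lay above all wt livers, and the change was 0.53 ± 0.17 (limma adjusted p = 0.159). Without 1KI replicates 3 and 4 it was 0.26 ± 0.14 (adjusted p = 0.589). In normalization 2 wt ran from 6.93 to 7.72, and the 3bKI tumours 1 to 4 gave 7.14, 8.91, 8.45 and 8.21. Replicate 1 lay at the level of wt and replicates 2, 3 and 4 above every wt liver, with a change of 0.98 ± 0.26 (adjusted p = 0.0735). Replicate 1 was the lowest of its group, so leaving it out raises the change by construction, here to 1.33 ± 0.18 (adjusted p = 0.00572). With sex as a covariate and without replicate 2 the change was 0.63 ± 0.29 (adjusted p = 0.423). Of 22 alternative settings, 2 called Anxa1 in 3bKI against wt.

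Anxa3, a smaller family member known from neutrophils and from blood vessel growth, was above all wt livers in 5 of the 9 tumours. It ran from 6.37 to 7.19 in wt with a median of 6.49, and the 1KI tumours 1 to 5 gave 6.85, 6.84, 7.39, 7.59 and 6.92. Replicates 3 and 4 were the 2 above all wt livers, and the change was 0.47 ± 0.17 (limma adjusted p = 0.191), or 0.22 ± 0.16 without them (adjusted p = 0.668). The 3bKI tumours 1 to 4 gave 6.62, 7.75, 8.10 and 7.15, beside 6.20 to 7.03 in wt. Replicates 2, 3 and 4 lay above all wt livers. The change was 0.93 ± 0.25 (adjusted p = 0.0710). Replicate 1 was again the lowest, and leaving it out raises the change by construction, here to 1.19 ± 0.21 (adjusted p = 0.0183). With sex as a covariate and without replicate 2 the change was 0.55 ± 0.29 (adjusted p = 0.474). Of 22 alternative settings, 3 called Anxa3 in 3bKI against wt. Against 3aKO, 3bKI was higher by 0.95 ± 0.30 for Anxa1 (adjusted p = 0.0750) and by 0.78 ± 0.27 for Anxa3 (adjusted p = 0.0939), neither past the threshold.

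Anxa4, found in secretory and bile duct epithelium, and Anxa7, also called synexin, which brings about membrane fusion in the presence of calcium, were higher in 1KI without passing the test. Anxa4 gave 9.74, 9.83, 9.95, 10.36 and 9.58 in 1KI tumours 1 to 5, beside 8.96 to 10.09 in wt with a median of 9.27. Its change was 0.53 ± 0.19 against wt (limma adjusted p = 0.186) and 0.59 ± 0.16 against 3aKO (adjusted p = 0.213). Without replicates 3 and 4 the change against wt was 0.35 ± 0.20 (adjusted p = 0.602). Only replicate 4 exceeded every wt liver, while 4 of the 5 exceeded every 3aKO liver. Anxa7 gave 10.03, 10.27, 10.87, 11.04 and 9.96, beside 9.47 to 10.14 in wt with a median of 9.74, and 3 of 5 tumours lay above wt. The change of Anxa7 was 0.63 ± 0.19 (adjusted p = 0.154), and 0.28 ± 0.14 without replicates 3 and 4 (adjusted p = 0.565).

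In 3bKI these genes lay within the wt range. Anxa4 gave 8.99, 9.72, 9.54 and 9.17 beside 8.80 to 9.96 in wt, a change of 0.14 ± 0.21 (limma adjusted p = 0.738). Anxa7 gave 9.84, 9.79, 10.02 and 9.86 beside 9.38 to 10.04, a change of 0.16 ± 0.12 (adjusted p = 0.480). No 3bKI tumour exceeded every wt liver for either gene. With sex as a covariate and without replicate 2, Anxa4 turned to -0.15 ± 0.25 (adjusted p = 0.859) and Anxa7 gave 0.30 ± 0.16 (adjusted p = 0.471).

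Anxa6, which has a doubled annexin core and takes part in endocytosis and cholesterol handling, overlapped between all groups. The 1KI tumours 1 to 5 gave 10.23, 9.71, 9.75, 10.22 and 10.43 and the 3bKI tumours 1 to 4 gave 9.71, 9.86, 9.81 and 10.04. In wt it ran from 9.63 to 10.11 in normalization 1 and from 9.45 to 9.92 in normalization 2. Against wt the change of 1KI was 0.24 ± 0.14 (limma adjusted p = 0.347) and that of 3bKI 0.21 ± 0.11 (adjusted p = 0.324). It was 0.30 ± 0.16 without 1KI replicates 3 and 4 (adjusted p = 0.585), and -0.00 ± 0.11 in 3bKI with sex as a covariate and without replicate 2 (adjusted p = 0.995). Against 3aKO it was -0.03 ± 0.15 (adjusted p = 0.945) and -0.10 ± 0.10 (adjusted p = 0.537). In 3aKO against wt it was 0.27 ± 0.11 (adjusted p = 0.651).

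Set side by side, the tumours differed in which annexins were high. 1KI replicates 3 and 4 were the 2 highest of their group for 6 of the 8 genes, all but Anxa6 and S100a10. In these 2 tumours Anxa2 lay 3.37 and 3.91 above the wt mean and Anxa5 2.84 and 3.76. In the other 1KI tumours the deviations were 0.48, 1.18 and 0.79 for Anxa2 and 1.49, 1.39 and 1.05 for Anxa5. Among 3bKI tumours, replicate 1 was the lowest for 6 of the 8 genes, all but Anxa7 and S100a10, and replicate 2 the highest for Anxa1, Anxa2, Anxa4 and Anxa5. Anxa7 lay 1.07 and 1.24 above the wt mean in 1KI replicates 3 and 4, and 0.23, 0.47 and 0.16 above it in replicates 1, 2 and 5. Its deviations in the 3bKI tumours were 0.07 to 0.31. Both 1KI replicates 3 and 4 were male. Their beta-actin ratios of 0.91 and 0.95 lay within the wt range, but were the 2 lowest of 1KI and below every 3aKO liver.

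**Figure D4:**
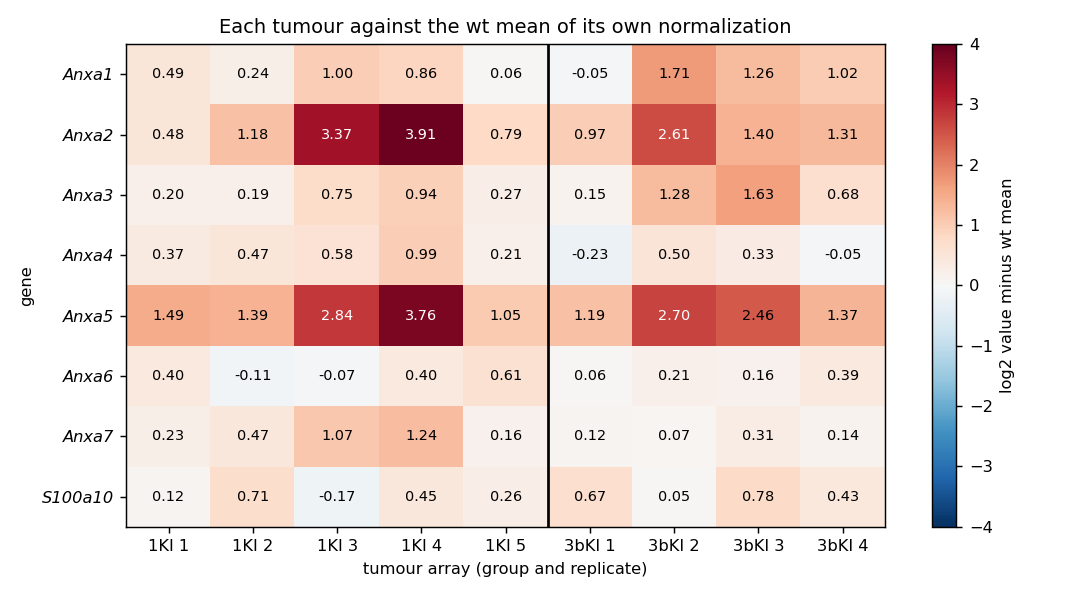
Log2 value of each gene (rows) in each of the 9 tumours (columns) minus the wt mean of the same normalization, with the value printed in each cell and red for higher. Anxa2 and Anxa5 are above 0 in every tumour, with the highest values, 3.91 and 3.76, in 1KI replicate 4.

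Other probe sets of the same genes were read in a fit of every probe set. The 8 members have 20 probe sets, and the nearest choice was for Anxa4, whose means were 9.37 for the probe set used and 9.20 for the next. Anxa3 and Anxa5 have no further probe set. A second Anxa2 probe set, 1437692_x_at, was dim (mean log2 of 4.41) and rose by 0.47 ± 0.08 in 1KI against wt (limma adjusted p = 0.0493) and by 0.47 ± 0.12 in 3bKI against 3aKO (adjusted p = 0.0388). It missed the threshold in 3bKI against wt, at 0.45 ± 0.12 (adjusted p = 0.0696). In 1KI against 3aKO it also missed, at 0.47 ± 0.08 (adjusted p = 0.0949). The third, 1437691_at, had a mean of 2.57 and a change of -0.02 ± 0.10 in 1KI against wt (adjusted p = 0.919). In 3bKI against wt its change was 0.14 ± 0.13 (adjusted p = 0.582). With the mean of the 3 probe sets, Anxa2 changed by 0.80 ± 0.19 in 1KI against wt (adjusted p = 0.105) and by 0.72 ± 0.11 in 3bKI against wt (adjusted p = 0.0150). The second Anxa1 probe set, 1444016_at, had a mean of 3.70 and gave -0.03 ± 0.08 in 1KI against wt (adjusted p = 0.849). The further S100a10 probe sets gave 0.22 ± 0.16 and 0.37 ± 0.18 in 1KI (adjusted p = 0.465 and 0.288) and 0.47 ± 0.17 and 0.62 ± 0.14 in 3bKI (adjusted p = 0.154 and 0.0508), all against wt.

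Genes with the pattern most like that of Anxa2 over the 17 arrays of normalization 1 were the gap junction gene Gja1 (Spearman's rho 0.953), the mitotic survivin gene Birc5 (0.951), the spectrin gene Sptbn1 (0.946), the myosin gene Myo1c (0.929) and the kinase gene Ripk4 (0.914). Over the 16 arrays of normalization 2, which share 12 arrays with the first, the rho with Anxa2 was 0.709, 0.582, 0.703, 0.929 and 0.394 in that order. For Anxa5 they were the endothelial gene Plvap (0.909), the PDGF receptor gene Pdgfrb (0.909), the macrophage elastase gene Mmp12 (0.904), the collagen gene Col5a1 (0.895) and Crim1 (0.877). In normalization 2 the rho with Anxa5 was 0.512, 0.679, 0.900, 0.868 and 0.124. These values describe arrays that share groups and, in normalization 1, 2 tumours that stand apart. Of the 10 genes, Myo1c and Mmp12 had a rho of 0.900 or more in both sets.

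Other annexins did not pass the test. Of Anxa8, Anxa9, Anxa10 and Anxa13, 3 of 4 lay above 0 in 1KI and in 3bKI against wt, with medians of 0.45 and 0.32, and 1 gene in each comparison had an unadjusted p under 0.05. So did 3465 of all 18193 genes in 1KI and 3778 in 3bKI, the background for such counts in all lists below. Anxa13, an annexin of gut and kidney epithelium, changed by 0.84 ± 0.30 in the 1KI tumours (limma adjusted p = 0.191). In 3bKI its change was 0.58 ± 0.18 (adjusted p = 0.107). Anxa9 changed by 0.84 ± 0.42 in 1KI (adjusted p = 0.288). Its change in 3bKI was 2.25 ± 1.25 (adjusted p = 0.327), where 1 of 4 tumours lay above all wt livers.

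Of 13 measured S100 genes outside the members, 0 were called in 1KI against wt (5 above 0, median -0.12, and 5 at an unadjusted p under 0.05) and 1 was called higher in 3bKI (9 above 0, median 0.12). That gene was S100a6, an EF-hand gene also known as calcyclin whose product binds annexins, at 0.98 ± 0.23 (limma adjusted p = 0.0493). In 1KI S100a6 changed by 1.09 ± 0.31 (adjusted p = 0.140) and S100g, a calcium buffer, by 1.86 ± 0.57 (adjusted p = 0.156). Among 12 measured binding partners and receptors, Ahnak, a giant scaffold protein that the Anxa2 and S100a10 complex holds at the membrane, rose against wt by 0.85 ± 0.11 in the 1KI tumours (adjusted p = 0.0130). Ahnak also rose by 0.55 ± 0.12 in the 3bKI tumours (adjusted p = 0.0400), and all 9 tumours lay above every wt liver. It was the 1 gene of that list called in either comparison (median 0.05 in 1KI and 0.12 in 3bKI). Pdcd6ip, or Alix, of the ESCRT machinery, fell in 3bKI against 3aKO by 0.69 on the log2 scale, with an SE of 0.08 (adjusted p = 0.00573).

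In the plasminogen system, 0 of 8 measured genes were called in 1KI against wt (5 above 0, median 0.03, and 2 at an unadjusted p under 0.05) and 1 in 3bKI against wt (6 above 0, median 0.18). Plat, which encodes tissue plasminogen activator, rose in 3bKI by 0.64 ± 0.11 against wt (limma adjusted p = 0.0206) and by 0.73 ± 0.14 against 3aKO (adjusted p = 0.0187). Plaur, the urokinase receptor gene, rose by 0.36 ± 0.08 against 3aKO (adjusted p = 0.0231). In 1KI Plau, which encodes urokinase, changed by -0.24 ± 0.08 against wt (adjusted p = 0.166) and Plat by 0.36 ± 0.16 (adjusted p = 0.258).

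Of 17 genes of phosphatidylserine exposure and recognition, 0 were called in 1KI against wt (11 above 0, median 0.06). There 5 had an unadjusted p under 0.05, as had 3465 of all 18193 genes. In 3bKI against wt 1 was called (12 above 0, median 0.10). Mfge8, a secreted bridge between phosphatidylserine and phagocytes, rose in 3bKI by 0.98 ± 0.17 against wt (limma adjusted p = 0.0206) and by 0.96 ± 0.16 against 3aKO (adjusted p = 0.0150). In 1KI it changed by 1.47 ± 0.52 against wt (adjusted p = 0.187), above every wt liver in all 5 tumours. The scramblase gene Ano6 changed there by 0.29 ± 0.10 (adjusted p = 0.177). Of 17 genes of membrane repair and calcium-dependent membrane binding, 0 were called against wt in either tumour (12 above 0 in each, medians 0.11 and 0.14, with 5 and 4 at an unadjusted p under 0.05). The caveolin gene Cav1 changed by 1.60 ± 0.46 in 1KI (adjusted p = 0.142). The next lowest p in 1KI was that of Cavin1, a caveolar coat gene, at 0.76 ± 0.23 (adjusted p = 0.149). Against 3aKO, 3bKI had 1 gene of this list called higher and 1 lower. Ehd2, an ATPase of caveolae, was higher by 0.36 ± 0.08 (adjusted p = 0.0321), and the lower one was Pdcd6ip, which the binding partner list also holds. Against wt in 3bKI, Ehd2 changed by 0.29 ± 0.09 (adjusted p = 0.112) and Pdcd6ip by -0.53 ± 0.14 (adjusted p = 0.0682).

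Markers of the cells that could carry annexins were read in the tumours too. Against wt, 0.242% of all genes were called in 1KI and 2.07% in 3bKI. Of all genes, 43.3% lay above 0 in 1KI and 53.1% in 3bKI. Stellate cell and fibrosis markers lay above 0 against wt for 12 of 13 genes in 1KI (median 0.56, 1 called, Pdgfrb) and for 13 of 13 in 3bKI (median 0.82, 5 called, Col1a1, Col1a2, Col3a1, Timp1 and Tagln). Their mean log2 level ran from 7.31 to 7.70 in wt, and the 1KI tumours lay above that with a median of 8.10 and a highest value of 8.36. In normalization 2 it ran from 7.21 to 7.58 in wt and from 7.72 to 8.51 in 3bKI. In 3aKO it ran from 7.43 to 7.94 and, in normalization 2, from 7.33 to 7.82, so 3bKI overlapped with 3aKO. The log2 of the summed level overlapped with wt in both kinds of tumour. That sum ran from 12.37 to 12.87 in wt and from 12.45 to 13.42 in 1KI. In normalization 2 the sum ran from 12.29 to 12.79 in wt and from 12.44 to 13.50 in 3bKI. Cholangiocyte and progenitor markers lay above 0 for 7 of 8 genes in each, with medians of 0.51 (1 called, Cd24a) and 0.36 (1 called, Cldn7). Their mean level ran from 4.81 to 5.62 in wt and from 5.75 to 6.30 in 1KI, and from 4.65 to 5.53 in wt and from 5.57 to 6.12 in 3bKI. In 3aKO it ran from 5.09 to 5.73 and, in normalization 2, from 4.97 to 5.58, where it overlapped with 3bKI. The log2 of their summed level overlapped with wt, at 9.33 to 11.04 in 1KI beside 8.28 to 9.69 in wt. For 3bKI the sum was 9.25 to 11.18, beside 8.10 to 9.61 in wt. Endothelial markers lay above 0 for 9 of 10 in 1KI (median 0.21) and 7 of 10 in 3bKI (median 0.19), with 0 called. An unadjusted p under 0.05 was found for 1 and 3 of them, beside 3465 and 3778 of all 18193 genes.

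Macrophage and Kupffer cell markers had a median of -0.51 in 1KI (2 of 12 above 0) and 0.25 in 3bKI (11 of 12), with Cd163 called lower in 3bKI. Neutrophil markers had medians of -0.25 (0 of 9) and 0.25 (9 of 9), T and NK cell markers -0.23 (0 of 9) and 0.21 (8 of 9), and B and plasma cell markers -0.14 (1 of 6) and 0.33 (5 of 6), none of them called by limma against wt (3 and 1, 3 and 0, and 0 and 1 at an unadjusted p under 0.05). Hepatocyte markers had medians of -0.15 and -0.22, with 2 of 12 above 0 in each. They were bright in every array, with a mean log2 level of 12.57 to 12.89 in wt and 11.53 to 13.01 in 1KI, and of 12.51 to 12.82 in wt and 12.24 to 12.72 in 3bKI. Markers of pancreas acini had medians of -0.13 and -0.04, of adipocytes and skeletal muscle -0.06 and 0.05, and of erythroid cells -0.11 and 0.08. Against 3aKO, where 9.18% of all genes were called, 2 of 12 hepatocyte markers were called lower in 3bKI, Cps1 and Slc10a1. Of 12 macrophage markers, Cd163 was called lower and Lyz2 higher. Elane of 9 neutrophil, Cd79a of 6 B and plasma cell and Cldn7 of 8 cholangiocyte markers were called higher. So were the same 5 of 13 stellate cell genes as against wt. A single called gene does not show a shift of its cell type. The part of these cell types in the values of Anxa2 and Anxa5 was not tested.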

How the data were processed

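The authors deposited log2 expression values per probe set, per the file, from total RNA taken with Trizol and hybridised as biotinylated cRNA, per the labels' protocols. The summary and normalization methods are not given in the sources used here. Of 45101 probe sets, 34945 carried 1 gene symbol, 932 several and 9160 none, 64 being controls. The probe set of highest mean stood for each gene. Each comparison was fitted on its 2 groups with limma 3.58.1 in R 4.3.3 (lmFit, eBayes, two-sided). The fit was first run on simulated data with the same spread in both groups, which cannot show how it behaves with unequal spreads. Correlations used permutation tests with 100000 resamples (exact for 7 livers) in scipy 1.17.1. Uty replaced Ddx3y, which has no probe set of its own, in reading sex (a log2 cut of 10 for Xist and of 5 for 3 Y-linked genes averaged). The members, gene lists and tests were chosen with earlier results of these data known. Named were all members, the 5 genes most like Anxa2 and Anxa5 and, from the 6 lists of related genes, the called genes or else the 2 of lowest p (for tumours against wt). Marker lists are given by counts and called genes. The labels do not say that arrays of a group are separate animals, so p-values measure the spread between these arrays, whose number limits the precision. The fit takes 1 spread per gene for both groups, while tumours spread more than wt for Anxa2 and Anxa5. The SD of Anxa5 was 1.15 in 1KI (n = 5) and 0.20 in wt (n = 7). In normalization 2 it was 0.76 in 3bKI (n = 4) and 0.18 in wt. With the smaller group the wider one, the SE and adjusted p of these genes can come out too small.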

Additional observations from a re-analysis of the deposited data

Results flagged for a closer look

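For Anxa1, 3 values stood apart from their group, out of 48 sets of 4, 5 or 7 arrays (8 genes in 6 groups) examined, of which chance would mark about 1 in 20. 3aKO replicate 2 was the lowest of its group in both normalizations of the same array, at 6.88 with the next at 7.40 in normalization 1 and at 6.75 with the next at 7.30 in normalization 2. In normalization 2, wt replicate 3 was the highest of its group at 7.72, with the next at 7.26. For no other gene of the family did a single array stand apart by this measure, and in groups of 5 arrays a pair of high arrays, such as 1KI replicates 3 and 4, is not picked out by it.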

How the results depend on the processing

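No call of a member reversed its direction. In 1KI against wt, where 1 member was called, 0 were called with quantile normalization, with a gene's probe sets averaged, with every probe set tested, with eBayes with trend and robust, and with the replicate number as a block (replicate block), and 2 with all 3 groups in the fit, which added Anxa2 (adjusted p = 0.0439). Leaving out 1 replicate gave 0 to 1. In 3bKI against wt, where 2 were called, all 3 groups in the fit gave 4, adding Anxa1 and Anxa3 (adjusted p = 0.0312 and 0.0307), the replicate block gave 3, adding Anxa3 (0.87 ± 0.14, adjusted p = 0.0392), and the beta-actin ratio as a covariate gave 0. Leaving out 1 replicate gave 2 to 4, with 4 without 3bKI replicate 1, the lowest of its group for Anxa1 and Anxa3. In 3bKI against 3aKO, where 1 was called, centring each array and dropping the 40% dimmest genes each gave 2 and all 3 groups gave 3, while the replicate block gave 0, with Anxa2 at 1.57 ± 0.27 (adjusted p = 0.0651), and the beta-actin covariate gave 0. Leaving out 1 replicate gave 1 to 4. In 3aKO against wt and 1KI against 3aKO, 0 members were called under any alternative. Deviations of same-numbered arrays from their group means correlated with r of -0.47 to 0.44, and in no comparison was every pair over 0.1 (3 of 4 were in 3bKI against 3aKO, at 0.06 to 0.28), so the numbers were not taken to pair samples. Where no value shows it, the cause of these shifts was not tested. Genes called in all were 44 in 1KI against wt (2 to 69 without 1 replicate, 1 to 313 under other settings), 377 in 3bKI against wt (49 to 848 and 0 to 996) and 1671 in 3bKI against 3aKO (490 to 1440 and 0 to 3125). They were 0 in 1KI against 3aKO (up to 6 and 57) and in 3aKO against wt (up to 1 and 3). The r of Anxa2 and S100a10 was 0.125 in normalization 2, 0.194 after quantile normalization and 0.314 with probe sets averaged. The relations with S100a11 were not run. The dim probe sets of Anxa1 and Anxa2 limit what they can show.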
